A study of Mus musculus with 6 samples.

Results

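RNA read counts of repeat families were compared between whole testes of Dnmt3L knockout mice and of their heterozygous littermates at 10dpp (days post partum). The comparison rests on 2 of the series' 6 libraries, chosen by their labelled genotype and age. Both are pools of testes from 3 mice labelled as C57BL/6 background, with 1 library a side. The control animals carry a disrupted copy of Dnmt3L beside a working one, while the knockout animals carry none. The other 4 libraries are a knockout and a heterozygous pool at 16.5dpc (days post coitum), and a knockout and a wild-type pool at 20dpp. Of the 787 families listed anywhere in the series, 678 had 50 or more counts in the 10dpp libraries together and were compared. The other 109 families hold 0.0511% of the counts.

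Dnmt3L has no catalytic activity of its own and assists the de novo DNA methyltransferases, which methylate retrotransposons in male germ cells before birth. Retrotransposons copy themselves through RNA. Long terminal repeat (LTR) elements, such as the intracisternal A-particles (IAP), carry a promoter in each LTR and code for their proteins in the internal part. LINE-1 elements have an internal promoter and code for their own reverse transcriptase, and SINEs are short, are made by RNA polymerase III and depend on LINE-1 proteins. In a normal testis at 10dpp the first germ cells are entering meiosis, beside spermatogonia, Sertoli cells and other somatic cells. Whether the knockout pool held the same cells could not be read, because the files hold no gene rows: the markers of testis cells, and the Dnmt3L transcript that would check the labels, were not analysed here. In whole testis a smaller number of cells of a type and a lower amount of RNA per cell cannot be told apart.

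The repeat reads listed came to 2275706 for the heterozygous and 1671536 for the knockout pool, with TMM factors of 1.02 and 1.01. Levels are given as CPM, the count per 1e+06 of the effective library, which is the listed total multiplied by its TMM factor. The CPM of all listed families therefore sum to 975646 in the heterozygous and 994948 in the knockout pool. A ratio is the knockout level over the control level after adding 0.5 counts, and it has a 95% counting interval (exact Clopper-Pearson, conditional on both counts). The interval covers the sampling of reads only. With 1 library a side there is no replicate error and no test at this age, so each ratio describes these 2 pools.

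At 10dpp the highest ratios of knockout over control were those of the IAP families IAPLTR1_Mm and IAPEz-int, and IAP made up 4 of the 7 families at least 2-fold higher. The other 3 were the DNA transposon Tigger16a and the ancient LTR entries MER67D and MER34B-int. Summed LINE-1 and SINE levels were close to the control. Over all 678 families the median log2 ratio was 0.01, and 5% of families lay below -0.35 and 5% above 0.58. The 7 families at least 2-fold higher are 1.03% of those compared, and 0 families (0%) were at least 2-fold lower. Intervals lay wholly above 0 for 123 families (18.1%) and wholly below 0 for 102 (15%), and they held 0 for the other 453. The shares of 18.1% and 15% are the background for each count of members below. Scaling on total listed counts lowered every log2 ratio by 0.03 and turned the split into 105 above and 138 below, so that 43.2% of such intervals lay above 0 instead of 54.7%.

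The spread of the ratios narrowed with the number of reads. Among the 130 families with 50 to 200 counts in both libraries together the SD of the log2 ratio was 0.39, and among the 76 with at least 10000 counts it was 0.24. In that most abundant group 5% of families lay below -0.15 and 5% above 0.39, and IAPEz-int, at 1.51, was the highest. A family with few reads therefore needed a larger ratio to stand apart from the rest.

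**Figure D1:**
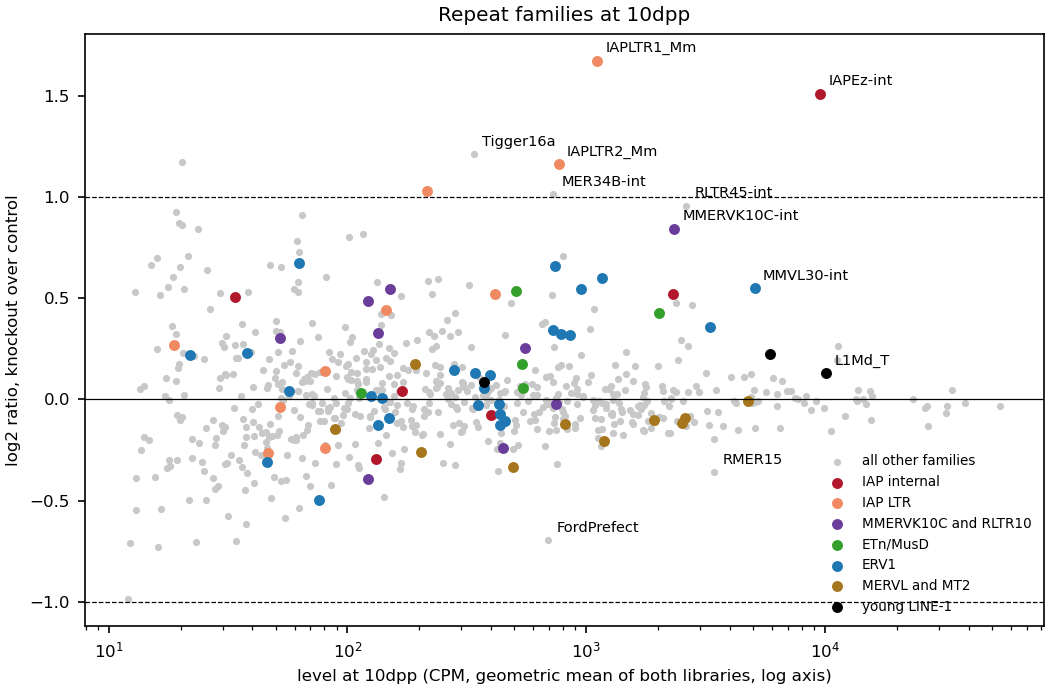
Level of each of the 678 families at 10dpp (x axis, CPM, geometric mean of both libraries, log axis) against the log2 ratio of knockout over control (y axis), 1 point per family, coloured by list; dashed lines mark 2-fold. IAPLTR1_Mm (1.67) and IAPEz-int (1.51) are the highest points, and the families of highest level lie close to 0.

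IAP internal sequences, the protein-coding part of the element, took 0.855% of the listed counts in the control (exact binomial interval 0.844 to 0.868) and 1.97% in the knockout pool (1.95 to 1.99). Most of this came from IAPEz-int, the internal sequence of the main mobile IAP group, which was at 5666 CPM in the heterozygous pool and at 16136 CPM in the knockout pool. Its ratio was 2.85 (2.79 to 2.91). The summed level of the 6 internal families was 2.35-fold higher, but without IAPEz-int it was 1.30-fold higher. Without IAPEz-int and IAPEY3-int the remaining 4 families summed to 752.1 CPM in the heterozygous pool and 720.1 CPM in the knockout pool.

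The 6 IAP internal families did not move together. IAPEY3-int, of a related IAP group, was at 1929 CPM in the heterozygous pool and 2764 CPM in the knockout pool, a ratio of 1.43 (1.38 to 1.49). IAPLTR4_I had 66 and 68 counts, and its log2 ratio of 0.50 had an interval of 0.01 to 1.03, which held 0 when scaled on total counts. IAPLTR3-int (log2 ratio 0.04, -0.18 to 0.27) and IAP-d-int (-0.08, -0.22 to 0.07) had intervals that held 0. IAPEy-int lay below the control, at 145.9 CPM in the heterozygous pool and 118.9 CPM in the knockout pool, with a log2 ratio of -0.29 (-0.55 to -0.04). Intervals thus lay above 0 for 3 of the 6 families and below 0 for 1, with a list median of 0.27. That median rests on IAPLTR4_I: with a minimum of 200 counts, which leaves it out, the median of the other 5 was 0.04.

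Among the 10 IAP LTR families, which hold the promoter, the surplus lay in the IAPLTR1 and IAPLTR2 groups. IAPLTR1_Mm was at 623.0 CPM in the heterozygous pool and 1987 CPM in the knockout pool, and its ratio of 3.19 (3.0 to 3.39) was the highest of all families. Its close relative IAPLTR1a_Mm was at 346.1 and 495.7 CPM, a ratio of 1.43 (1.30 to 1.58). IAPLTR2_Mm was at 512.3 CPM in the heterozygous pool and 1145 CPM in the knockout pool, a ratio of 2.24 (2.08 to 2.40).

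The other IAPLTR2 entries followed in the same direction. IAPLTR2a was at 151.1 and 308.6 CPM, 2.04-fold higher (1.78 to 2.35), and IAPLTR2b at 125.0 and 169.6 CPM, 1.36-fold higher (1.15 to 1.60). The remaining LTR entries had intervals that held 0: the log2 ratios were 0.27 for IAPLTR3, 0.14 for IAPEY3_LTR, -0.04 for IAPLTR4, -0.24 for IAPEY2_LTR and -0.27 for IAPEY_LTR. Their intervals were wide, from -0.42 to 0.97 for IAPLTR3 with 75 counts over both libraries and from -0.57 to 0.09 for IAPEY2_LTR with 327. Over the LTR list 5 of 10 intervals lay above 0 and 0 below, the median was 0.35, and the summed level was 2.14-fold higher, or 1.37-fold higher without IAPLTR1_Mm and IAPLTR2_Mm.

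**Figure D2:**
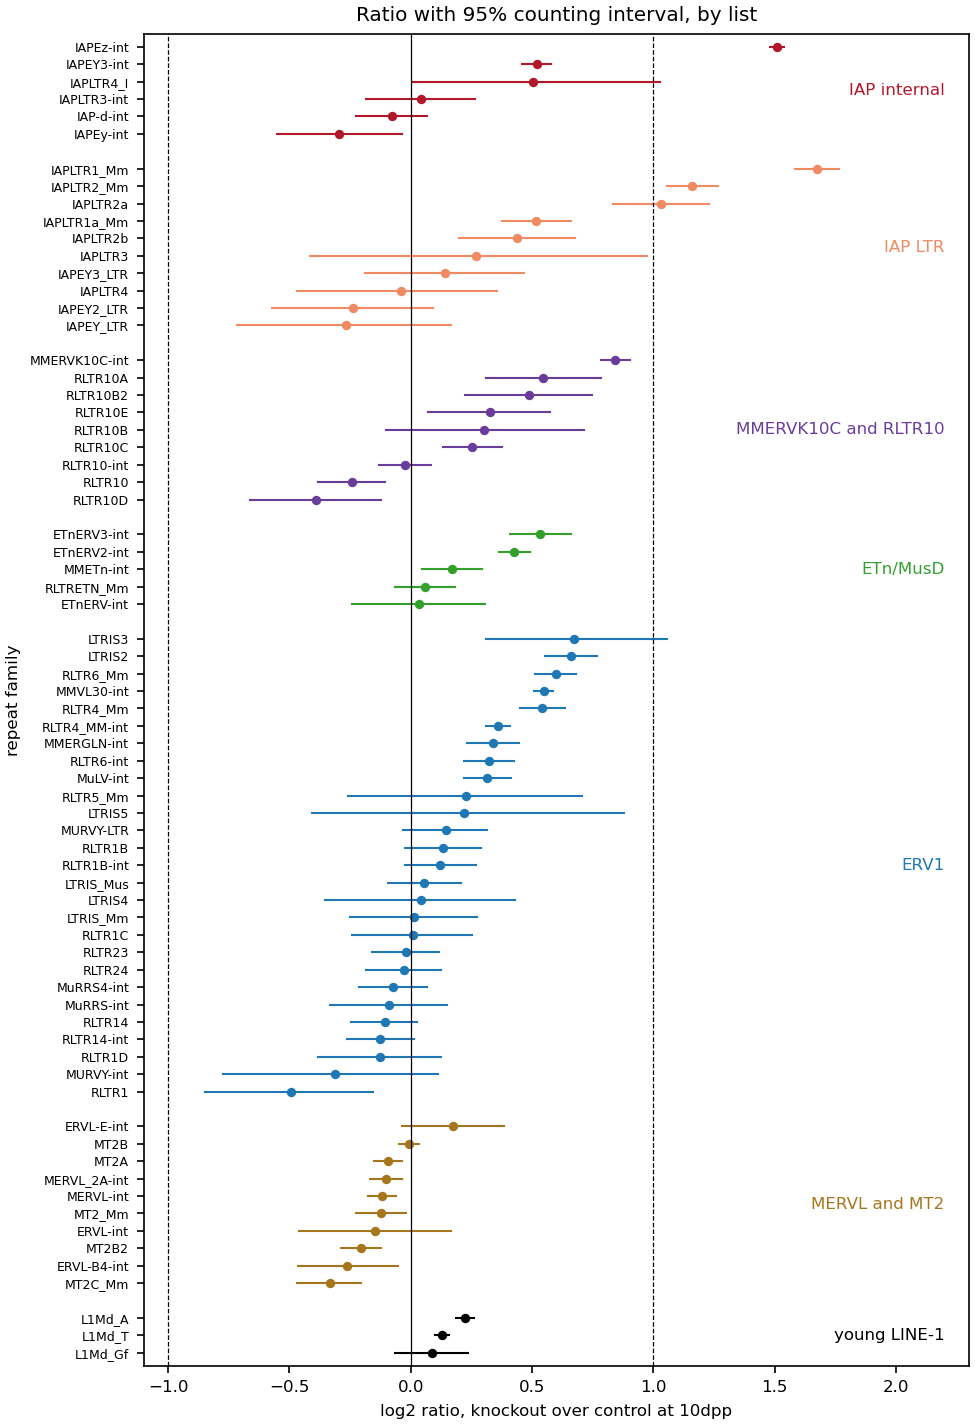
Log2 ratio of knockout over control at 10dpp (x axis) for the 70 families of 7 lists (y axis), with the 95% counting interval as a bar and the ratio as a point; dashed lines mark 2-fold. Only IAP entries (IAPEz-int, IAPLTR1_Mm, IAPLTR2_Mm and IAPLTR2a) lie beyond 2-fold among them, and each list holds entries on both sides of 0 except ETn/MusD and young LINE-1.

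MMERVK10C, another mobile ERVK element, was higher in both of its parts. MMERVK10C-int, its internal part, was at 1743 CPM in the heterozygous pool and 3127 CPM in the knockout pool, a ratio of 1.79 (1.72 to 1.87). RLTR10C, its LTR, was at 504.8 and 602.0 CPM, a ratio of 1.19 (1.10 to 1.30). The related LTRs RLTR10A (log2 ratio 0.55, 0.31 to 0.78), RLTR10B2 (0.49, 0.22 to 0.75) and RLTR10E (0.33, 0.07 to 0.57) were higher, while RLTR10 (-0.24, -0.38 to -0.11) and RLTR10D (-0.39, -0.66 to -0.12) were lower. In this list 5 of 9 intervals lay above 0 and 2 below. The list's surplus was MMERVK10C-int: without it the other 8 families summed to 2276 CPM in the heterozygous pool and 2392 CPM in the knockout pool, 1.05-fold higher.

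ETn and MusD elements, a further mobile ERVK group, were modestly higher. ETnERV3-int was at 421.8 CPM in the heterozygous pool and 611.0 CPM in the knockout pool (ratio 1.45, 1.33 to 1.58). ETnERV2-int was at 1731 and 2326 CPM (ratio 1.34, 1.29 to 1.40), and MMETn-int at 506.2 and 570.3 CPM (1.13, 1.03 to 1.23). The intervals of RLTRETN_Mm, their LTR (log2 ratio 0.06), and of ETnERV-int (0.03) held 0. All 5 ratios were above 0 under each scaling tried, with a median of 0.17.

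Gammaretrovirus-like elements (the ERV1 list) gave 9 of 27 intervals above 0 and 1 below, with a median of 0.12, or 9 and 3 when scaled on total counts. VL30, a non-coding retrotransposon of this class, was higher in both of its parts: MMVL30-int was at 4198 CPM in the heterozygous pool and 6139 CPM in the knockout pool (log2 ratio 0.55, 0.51 to 0.59), and its LTR RLTR6_Mm at 945.6 and 1432 CPM (log2 ratio 0.60, 0.51 to 0.68). RLTR4_Mm, the LTR of murine leukaemia virus sequences, was at 787.3 and 1147 CPM, a ratio of 1.46 (1.37 to 1.55). The matching internal entries had lower ratios, of 1.28 (1.24 to 1.33) for RLTR4_MM-int and 1.25 (1.16 to 1.33) for MuLV-int.

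LTRIS2, a further ERV1 LTR, was at 586.3 CPM in the heterozygous pool and 926.8 CPM in the knockout pool, a ratio of 1.58 (1.47 to 1.70). The rarer LTRIS3 was at 49.5 and 79.1 CPM, a ratio of 1.60 (1.24 to 2.08), whereas LTRIS_Mus (log2 ratio 0.06), LTRIS4 (0.04) and LTRIS_Mm (0.02) lay near 0. MMERGLN-int was at 647.4 and 819.4 CPM (ratio 1.27, 1.18 to 1.36) and RLTR6-int at 699.6 and 875.4 CPM (1.25, 1.17 to 1.34). The entry with its interval below 0 was RLTR1, at 90.1 CPM in the heterozygous pool and 63.8 CPM in the knockout pool (log2 ratio -0.49, -0.85 to -0.16). MuRRS-int (-0.09), MuRRS4-int (-0.07), RLTR14 (-0.11) and MURVY-int (-0.31) had intervals that held 0.

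Internal entries and their LTRs are counted apart, so their ratios can be set side by side for the same element. On the log2 scale IAPLTR1_Mm exceeded IAPEz-int, with a difference (internal minus LTR) of -0.16 and intervals that did not overlap, while IAPEz-int exceeded IAPLTR1a_Mm by 0.99. MMERVK10C-int exceeded RLTR10C by 0.59, and ETnERV2-int exceeded RLTRETN_Mm by 0.37. For VL30 the difference was -0.05 and for MERVL 0.00, and their intervals overlapped. Of the 11 such pairs named for this comparison, 5 had overlapping intervals, in 3 the internal entry was higher and in 3 the LTR. These pairs are not all separate elements. IAPEz-int is counted on each side, and RLTR4_Mm is the higher LTR for both MuLV-int and RLTR4_MM-int.

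Pairs that share a name, X-int with X, were 44, and 34 of them had overlapping intervals. In 8 the internal entry was higher and in 2 the LTR, and the median difference was 0.11. Among the rodent LTR pairs outside MaLR the largest separations were RLTR45-int over RLTR45 (0.62), RMER16-int over RMER16 (0.55) and RLTR19-int over RLTR19 (0.46). Near-identical subfamilies can exchange reads in these files, so a split between 2 entries of an element need not be a split between transcripts.

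**Figure D3:**
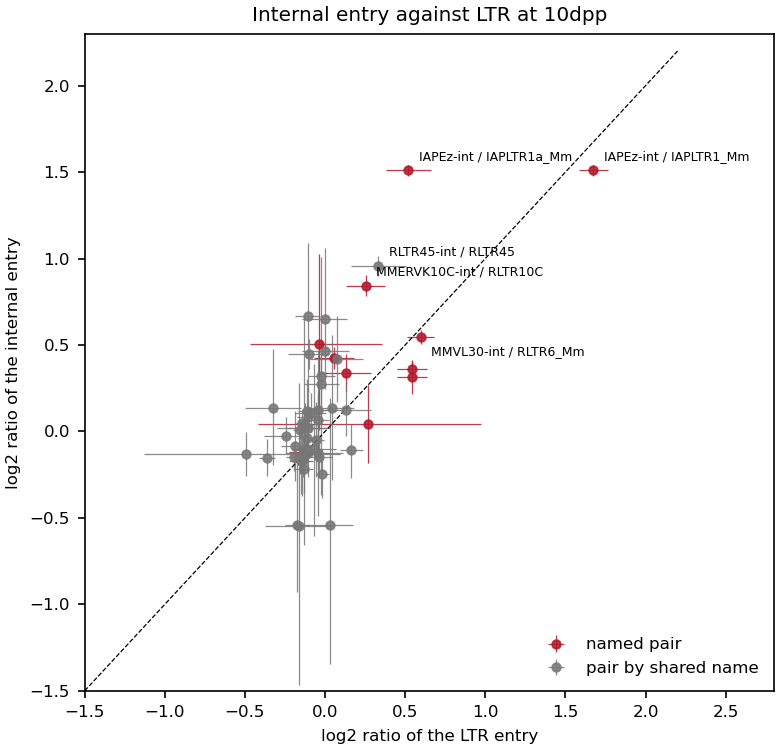
Log2 ratio of the internal entry (y axis) against that of the LTR entry (x axis) at 10dpp, 1 point per pair with 95% counting intervals as bars, red for the 11 named pairs and grey for the 44 pairs by shared name; the dashed line marks equal ratios. IAPEz-int with IAPLTR1_Mm and MMVL30-int with RLTR6_Mm lie near the line, and MMERVK10C-int with RLTR10C and RLTR45-int with RLTR45 lie above it.

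LINE-1 RNA as a class was close to the control. L1Md_A, which includes mobile copies, was at 5463 CPM in the heterozygous pool and 6376 CPM in the knockout pool (ratio 1.17, 1.14 to 1.20). L1Md_T, another, was at 9632 and 10529 CPM (1.09, 1.07 to 1.11), and L1Md_Gf at 362.6 and 385.1 CPM (1.06, 0.957 to 1.18), so that for L1Md_Gf no difference was detectable at this depth. The 3 subfamilies together were 1.12-fold higher.

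The 31 older rodent LINE-1 families lay within a narrow range, from -0.16 to 0.22 in log2 ratio, with 5 intervals above 0 and 6 below and a median of 0.01. Under total scaling these became 2 above, 9 below and a median of -0.02. Their summed level was 118681 CPM in the heterozygous pool and 118951 CPM in the knockout pool. Lx5 (log2 ratio 0.11, 0.07 to 0.14) and L1_Mus2 (0.12, 0.08 to 0.17) were slightly higher, and Lx4B (-0.16, -0.23 to -0.09) and Lx8 (-0.08, -0.11 to -0.05) slightly lower. L1Md_F2, the entry with the most reads of this list, had a log2 ratio of 0.02 (-0.01 to 0.04), which turned sign under total scaling. Among 73 ancient LINE-1 families 9 intervals lay above 0 and 11 below (7 and 12 under total scaling), with a median of 0.01 that became -0.02. L1MEe was the highest of them, at 624.0 CPM in the heterozygous pool and 1018 CPM in the knockout pool (ratio 1.63, 1.52 to 1.75), and L1M3d the lowest (log2 ratio -0.99, -2.03 to -0.13, from 40 and 14 counts).

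ERVL elements are a class of LTR retrotransposons that includes MERVL and the non-coding MaLR. Of this class, the MERVL and MT2 list and the MaLR list had medians below 0. Entries of the class filed in other lists are not covered, and some of them, such as HERVL40-int and MLT2F, were higher in the knockout pool. In the MERVL and MT2 list 0 of 10 intervals lay above 0 and 7 below, under total scaling too, and the median was -0.12. MERVL-int was at 2634 CPM in the heterozygous pool and 2425 CPM in the knockout pool (log2 ratio -0.12, -0.18 to -0.06), and its LTR MT2_Mm at 849.5 and 781.0 CPM (-0.12, -0.22 to -0.02). MT2C_Mm had the lowest value of the list, at 554.2 and 439.5 CPM (-0.33, -0.47 to -0.20). RMER15, an LTR outside this list, was at 3884 CPM in the heterozygous pool and 3028 CPM in the knockout pool (-0.36, -0.41 to -0.31), and its internal entry RMER15-int at 787.7 and 709.4 CPM (-0.15, -0.26 to -0.04).

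In the MaLR list 31 of 84 intervals lay below 0 and 7 above, with a median of -0.09. Split by name, a split made after the values were seen, the rodent MT entries gave 0 intervals above 0 and 9 below of 19, and the rodent ORR1 entries 0 above and 14 below of 25. The older MLT1 entries gave 7 above and 8 below of 40. The differences were small in size: the medians were -0.08 for MT, -0.11 for ORR1 and 0.00 for MLT1, and under total scaling they became -0.11, -0.14 and -0.02. MTD was at 11128 CPM in the heterozygous pool and 9993 CPM in the knockout pool (log2 ratio -0.16, -0.18 to -0.13), MTC at 6781 and 6136 CPM (-0.14, -0.18 to -0.11) and ORR1B1 at 3682 and 3212 CPM (-0.20, -0.25 to -0.15). At 16.5dpc the MT entries had 10 intervals above 0 and 2 below, and at 20dpp 7 above and 10 below.

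SINEs took 48.7% of the heterozygous pool's listed counts and 47.4% in the knockout pool, and their summed level differed by a ratio of 0.993. Of 31 families 8 intervals lay above 0 and 11 below, or 5 and 17 under total scaling. The log2 ratios of the list ran from -0.70 to 0.26. The highest were the young B2 subfamilies B2_Mm1a, at 10340 CPM in the heterozygous pool and 12398 CPM in the knockout pool (ratio 1.20, 1.18 to 1.22), and B2_Mm1t, at 10486 and 12008 CPM (1.15, 1.12 to 1.17). B2_Mm2 (log2 ratio 0.05) and B1_Mm (0.05) were near the control. B4A, of the B4 group, was at 28301 and 25822 CPM (log2 ratio -0.13, -0.15 to -0.11), B4 at -0.10 (-0.13 to -0.08) and RSINE1 at -0.07 (-0.08 to -0.05). At this depth the intervals of abundant families exclude 0 at small differences, and they hold no error between pools. SINE copies can also lie within transcripts of genes, so these values need not reflect transcription of the SINEs themselves.

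Among the other rodent LTR entries 21 of 127 intervals lay above 0 and 19 below (17 and 30 under total scaling). RLTR45-int, the internal part of an ERVK element, was at 1877 CPM in the heterozygous pool and 3643 CPM in the knockout pool, a ratio of 1.94 (1.87 to 2.02). RNERVK23-int was at 2020 and 2813 CPM (1.39, 1.34 to 1.45) and RLTR19-int at 2351 and 3246 CPM (1.38, 1.33 to 1.43). With fewer reads, RLTR9B had a log2 ratio of 0.59 and RLTR46 of 0.52. The lowest with an interval below 0 were MERVK26-int (-0.48, -0.74 to -0.24), RMER15 and RodERV21-int (-0.35, -0.50 to -0.21).

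Outside the rodent elements, Tigger16a, an ancient DNA transposon, was at 222.1 and 514.3 CPM, a ratio of 2.31 (2.07 to 2.59). MER34B-int, from an ancient ERV1, was at 509.8 and 1029 CPM (2.02, 1.87 to 2.18), just above 2-fold, and below it under total scaling. MER67D, an ancient LTR with 31 and 51 counts, had a ratio of 2.25 (1.43 to 3.69). FordPrefect, a DNA transposon, was at 879.9 CPM in the heterozygous pool and 543.0 CPM in the knockout pool, a log2 ratio of -0.70 (-0.81 to -0.58). Copies of such elements can lie within transcripts of genes, and a family's value does not say from which copy its reads came.

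As lists, DNA transposons gave 23 of 125 intervals above 0 and 6 below (median 0.08), and ancient LTRs 14 of 95 above and 5 below (median -0.04). MIR, LINE-2 and related ancient entries gave 6 of 14 above and 0 below, with 12 of 14 ratios above 0 (median 0.12), led by L4 (log2 ratio 0.35, 0.26 to 0.44) and L3 (0.27, 0.21 to 0.32). Under total scaling the MIR and LINE-2 list had 6 above and 1 below.

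The 346 families with a higher level gained 46116 CPM in all, of which IAPEz-int made up 22.7% and the 10 largest gains 50.8%. By list, IAP internal entries held 24.6% of the gain, SINEs 14.2%, other rodent LTR entries 11.8%, ERV1 10.0% and IAP LTRs 5.12%. After IAPEz-int the largest gains were those of B2_Mm1a (2059 CPM), MMVL30-int (1941 CPM), RLTR45-int (1766 CPM) and B2_Mm1t (1522 CPM). Of the summed deficit of -26759 CPM in the other 332, the 10 largest losses held 41.5%. By list, 36.8% of the deficit lay in SINEs and 27.1% in MaLR, and the largest single deficits were those of B4A (-2480 CPM) and RSINE1 (-1455 CPM). These amounts are counts of reads, not corrected for the length or copy number of an element. The level of every family is relative to the listed total after TMM scaling, so the summed gain and the summed deficit need not be equal.

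The 10dpp ratios were set beside those of the other ages, which come from separate libraries. IAPEz-int lay at 6929 CPM in the heterozygous pool and 11979 CPM in the knockout pool at 16.5dpc, and at 20dpp at 7980 CPM in the wild-type and 27648 CPM in the knockout pool, so that its log2 ratio of 1.51 at 10dpp lay between 0.79 and 1.79. MMERVK10C-int had 0.61, 0.84 and 1.44 in order of age. IAPLTR2_Mm had 0.47, 1.16 and 0.24, and IAPLTR2a 0.51, 1.03 and -0.08, with the highest value of each at 10dpp.

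RLTR45-int likewise was highest at 10dpp (0.49, 0.96 and 0.25), while its level in both genotypes was highest at 20dpp, at 7181 CPM in the wild-type pool and 8558 CPM in the knockout pool. MMERGLN-int had 1.27, 0.34 and 0.91, and IAPEy-int 0.37, -0.29 and 0.89, with the lowest value of each at 10dpp. L1Md_T had 0.22, 0.13 and 2.10: at 20dpp it was at 9611 CPM in the wild-type pool and 41208 CPM in the knockout pool. The wild-type control at 20dpp and the larger totals of that age (8639952 and 11239673 listed counts) differ from 10dpp as well. The cells that make up the testis can also differ between ages, and they could not be read here. The part of each in these differences was not tested.

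**Figure D4:**
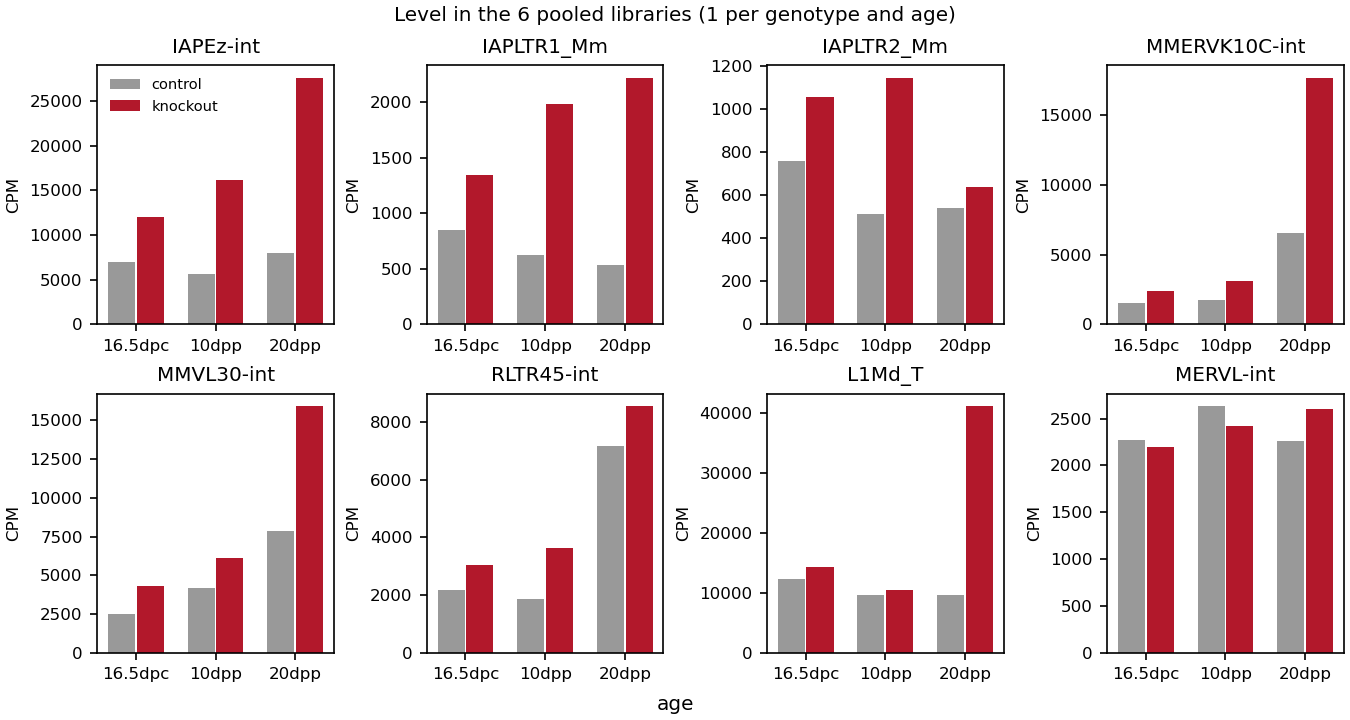
Level (y axis, CPM, linear from 0, own scale in each panel) of 8 families in the 6 pooled libraries by age (x axis), grey for control and red for knockout, 1 library per bar and no error bars. The red bar is the higher of each pair at 10dpp for 7 families and the lower one for MERVL-int (2425 against 2634 CPM). Examples of the 7 are IAPLTR2_Mm (1145 against 512.3 CPM) and L1Md_T (10529 against 9632 CPM).

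Whether the 10dpp ratio differed from the shared ratio of the other ages was tested with edgeR's quasi-likelihood test on all 6 libraries, with 1 residual degree of freedom. After Benjamini-Hochberg adjustment over 752 families 0 passed 0.05, and 5 had an unadjusted p below 0.05. DESeq2 gave 0 of 786 and 4 unadjusted. For IAPEz-int the 10dpp log2 ratio exceeded the shared one by 0.19 ± 0.48 (SE, edgeR adjusted p = 0.999) and for IAPLTR2_Mm by 0.78 ± 0.31 (adjusted p = 0.999). For L1Md_T the difference was -1.06 ± 0.88 (adjusted p = 0.999). The residual holds the change of the ratio between 16.5dpc and 20dpp beside noise between pools, so a family whose ratio differed widely between those ages, such as L1Md_T, had a wide error. In simulated data with the fitted dispersion, this test called 0% of the families changed 2-fold at 10dpp and 62.5% of those changed 4-fold. Differences of about 2-fold were therefore out of its reach. It does not decide whether any family's ratio is particular to 10dpp.

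The families set apart at 10dpp overlapped in part with those of the other ages. Of the 123 families with an interval above 0 at 10dpp, 68 (55.3%) were also above 0 at 16.5dpc and 25 were below. Among all 672 families compared at both of these ages, 205 were above 0 at 16.5dpc and 186 below, and the 68 are 33.2% of the 205. At 20dpp 85 of the 123 (69.1%) were above 0 and 25 below. Among all 678 families 297 were above 0 at 20dpp and 239 below, and the 85 are 28.6% of the 297. Of the 7 families at least 2-fold higher at 10dpp, 0 were so at 16.5dpc and 2 at 20dpp, IAPEz-int and IAPLTR1_Mm. Among all families 16 of 672 were at least 2-fold higher at 16.5dpc and 13 of 678 at 20dpp. An overlap of 0 among 7 families therefore says little about a difference between ages. Of the 102 families with an interval below 0 at 10dpp, 32 were also below 0 at 16.5dpc and 38 were above. At 20dpp 47 of the 102 were below 0 and 33 above. The SD of the log2 ratio over families was 0.29 at 10dpp, against 0.41 at 16.5dpc and 0.61 at 20dpp, and the deeper libraries of 20dpp narrow its counting intervals.

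**Figure D5:**
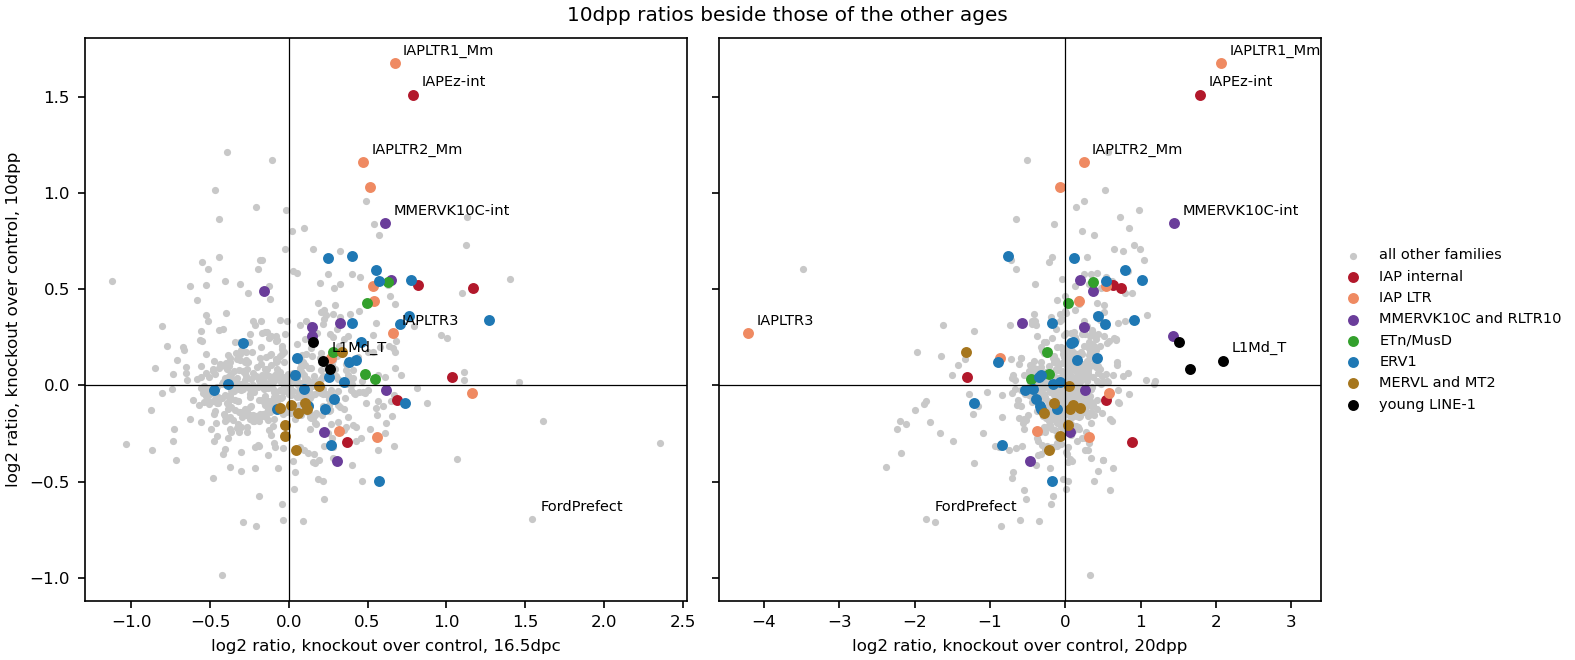
Log2 ratio of knockout over control at 10dpp (y axis) against that at 16.5dpc (left x axis) and at 20dpp (right x axis), 1 point per family, coloured by list. IAPEz-int and IAPLTR1_Mm lie at the upper right of both panels, L1Md_T at 0.13 on the y axis lies at 0.22 on the left and 2.10 on the right, and FordPrefect lies at 1.55 on the left and -1.84 on the right.

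Around the minimum of 50 counts the values were imprecise. The families just inside it were Tigger11a with 51 counts over both libraries (log2 ratio 0.53, -0.32 to 1.38) and L1M3a with 53 (-0.71, -1.68 to 0.15). Just outside it were MER57E1 with 26 control and 23 knockout counts and LTR86C with 34 and 14.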

How the data were processed

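Total RNA was extracted with TRIzol and made into stranded mRNA libraries, per the labels' protocols. The authors deposited estimated counts of reads per repeat family, which need not be whole: 13.3% of the control and 13.5% of the knockout values at 10dpp were whole within 1e-06. Bowtie and mm9 are named in the submitters' processing notes. Tool versions, the source of the family names, how reads matching several families were shared and whether strand was used: each is not given in the sources used here. Any family missing from a file was taken as 0.

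Counts were scaled with TMM factors from all 6 libraries (edgeR 4.0.16, R 4.3.3). Ratios used 0.5 added counts and a minimum of 50 counts in both 10dpp libraries. Intervals and tests used counts rounded to whole numbers (scipy 1.17.1). Reads shared between families are not independent, and no molecular identifiers are named in the labels, so intervals cover counting error only. The edgeR model held age, genotype and genotype at 10dpp, with the default filter. DESeq2 1.42.0 was an alternative. Scripts were tested on simulated data.

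Families were put in 15 lists by name patterns, and 36 belong to none. The rule for naming families took in all members of the young LINE-1, IAP, ETn/MusD, MMERVK10C, ERV1, MERVL and SINE lists. With intervals that exclude 0, it added the 5 highest and 5 lowest of each other list. It also added the 15 highest and 15 lowest of all such families. The 10 largest gains and losses, the pairs, and families next to the minimum completed it. Not all of the families it took in are printed above. The members and lists were chosen with earlier results of these data known. The split of MaLR by name and the choice of L1Md_F2 were made after the values were seen. No repeat sequence or coordinate is printed, since none was used here.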

Additional observations from a re-analysis of the deposited data

Results flagged for a closer look

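In 4 families the 10dpp ratio and that of another age lay on opposite sides of the control, each at least 1.5-fold and with an interval that excluded 0. FordPrefect had a log2 ratio of -0.70 at 10dpp and 1.55 at 16.5dpc. LTRIS3 had 0.67 at 10dpp and -0.76 at 20dpp, Charlie18a 0.61 and -0.65, and MamGypLTR1d, with 35 and 46 counts at 10dpp, 0.86 and -0.65. The difference between these pairs of ages was not tested, because each age has 1 library a side. Against the other ages together edgeR gave an adjusted p of 0.999 for each of the 4. Its unadjusted p was 0.035 for Charlie18a and for MamGypLTR1d, which were among the 5 families below 0.05. It was 0.26 for LTRIS3 and 0.74 for FordPrefect. FordPrefect lay below the control at 20dpp, as at 10dpp. Because that test pools 16.5dpc with 20dpp, it cannot address a reversal against 1 of them. In simulated data that test called 0% of 2-fold changes.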

How the results depend on the processing

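No paired analysis was possible because each genotype and age has 1 library. Of the 252 families taken in by the naming rule, 0 with an interval that excluded 0 turned sign under another scaling or an added count of 5. With no minimum, 13 families reached 2-fold above the control and 26 reached 2-fold below it, instead of 7 and 0: this setting adds families with few counts. Under total scaling 1 family, L1M3d, was at least 2-fold lower, and the medians of the rodent and ancient LINE-1 lists turned to -0.0192 and -0.0209. The counts over all families of intervals above and below 0 stayed within 1.5 times under the alternatives run. Counts within lists moved further under total scaling, as in rodent LINE-1 (2 above and 9 below) and SINEs (5 and 17). The IAP internal median was 0.04 with a minimum of 200 counts. The test against the other ages gave 0 under each, but in simulated data its main form called 0% of 2-fold changes. The TMM factors of the 10dpp libraries alone moved no ratio. Depth limits families of under 200 counts, whose interval ends were a median 2.19-fold apart, against 1.05-fold at 10000 counts or more.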
